A study of Mus musculus with 20 samples.

Results

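The 9 genes described here are *Nrg1*, *Nrg2*, *Nrg3*, *Erbb4*, *Disc1*, *Dtnbp1*, *Reln*, *Tcf4* and *Zfp804a*, a set of neuregulin genes and long-studied candidate genes for schizophrenia. They were taken by gene name from the table of raw counts, in which each name had 1 row, and make up 9 of its 25190 genes. All of them were measured in each of the 20 libraries, and the smallest count of any of them in a library was 22.

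Neuregulins are growth factors of the epidermal growth factor family. They are made as membrane-bound precursors, are cut free by proteases, and bind ErbB receptor tyrosine kinases, of which ERBB4 is the main neuregulin receptor of neurons and is prominent in hippocampal inhibitory interneurons. Reelin is a large secreted protein that positions neurons during development and acts on synapses in the adult, DISC1 and dysbindin (encoded by *Dtnbp1*) work in scaffolding and vesicle trafficking, TCF4 is a basic helix-loop-helix (bHLH) transcription factor, and *Zfp804a* encodes a zinc finger protein.

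RNA of the hippocampus was sequenced in 4-month-old male wild-type C57BL/6JOlaHsd mice, 5 in each of 4 groups, after 2 bilateral infusions through cannulas into CA1 of the dorsal hippocampus. Vehicle mice received artificial cerebrospinal fluid without small RNAs (sRNAs), Control mice received a pool of sRNAs purified from hippocampi of individuals without psychiatric illness, and the infusions of Pool 1 and Pool 2 mice held sRNAs from hippocampi of different cohorts of patients with schizophrenia. All groups had the same surgery and behavioural tests, and the tissue was taken 24 hours after the last test. The mice of a group all received the same pool of human sRNAs, so that a group stands for 1 pool and not for single donors.

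Total counts per library ranged from 20588280 to 25543939. CA1 pyramidal (*Wfs1*, 102 to 403 CPM, and *Fibcd1*, 98.9 to 282 CPM) and dentate granule markers (*Prox1*, 45.3 to 209 CPM) were present in every library, so the tissue was not CA1 alone as the series' design text has it. CPM is the read count scaled to library size with TMM factors. The thalamic marker *Slc17a6* ranged from 3.13 to 65.9 CPM and the summed choroid plexus markers from 93.1 to 8960 CPM. The library of Pool 2 replicate 1 stood apart from the rest, with a summed interferon response list of 177 CPM and a summed microglia list of 1100 CPM, the highest of all libraries for both lists. In bulk tissue, fewer cells of a type and less RNA per cell cannot be told apart.

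To ask whether sRNAs of patients changed these genes, Pool 1 and Pool 2 were each compared with Control. None of the 9 genes passed the threshold of the study (a log2 fold change of 0.3 or more in either direction and an unadjusted p-value under 0.05) in Pool 1 against Control, where 3.48% of all genes did, nor in Pool 2 against Control, where 6.22% did. None passed in Pool 2 against Pool 1 (background 6.82%) or in Control against Vehicle (background 5.10%). The ranges of the groups overlapped for each of the 9 genes in every comparison, but the share of all genes with such overlap was not counted. The number of the 9 genes with an unadjusted p-value under 0.05 was 0 in each comparison by edgeR and by DESeq2, while in the table as a whole edgeR gave 5.22%, 7.70%, 8.52% and 6.64% of the genes in Pool 1 against Control, Pool 2 against Control, Pool 2 against Pool 1 and Control against Vehicle. With shares of 3.48% to 6.82% over all genes, no call among 9 genes does not set them apart from the rest. The study also left genes with a mean normalized count under 10 out of its lists, a filter used here only as an alternative. That filter kept 16644 genes, all 9 among them, and 402, 969, 1133 and 795 genes passed in the same order. After Benjamini-Hochberg adjustment over the 25190 genes, edgeR gave no gene of the table an adjusted p-value under 0.05 in any comparison, against 1314, 1939, 2146 and 1672 genes at the unadjusted value in the same order. DESeq2 gave 7, 18, 115 and 0 genes with an adjusted p-value under 0.05, none of them among the 9.

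The median log2 fold change of the 9 genes was 0.07 in Pool 1 against Control (all genes −0.01) and −0.03 in Pool 2 against Control (all genes 0). It was −0.14 in Pool 2 against Pool 1 (all genes 0.02) and 0.03 in Control against Vehicle (all genes −0.01). In exact two-sided permutation tests of single genes, 0 of 36 comparisons had a p-value under 0.05. The smallest was 0.0635 and the smallest adjusted value was 0.889, where 5 mice against 5 can reach 0.00794.

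**Figure D1:**
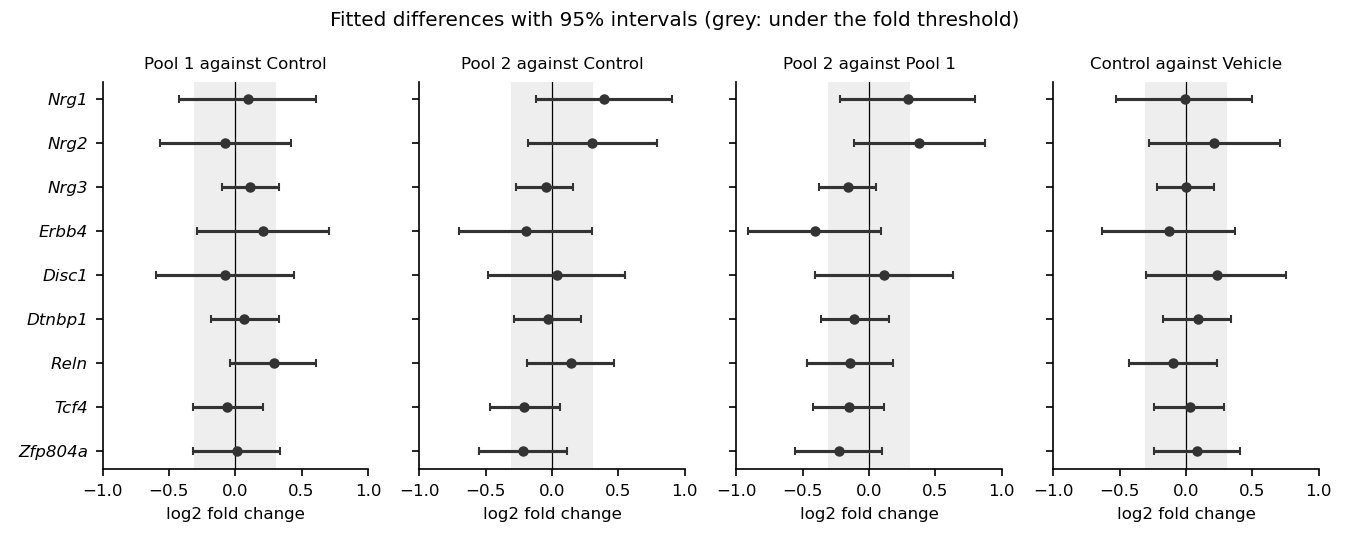
Fitted log2 fold change (horizontal axis) of each of the 9 genes (rows) in the 4 comparisons (panels), first group minus second group, with 95% intervals from edgeR, and the grey band marks changes under 0.3. Every interval crosses 0, and the widest belong to *Nrg1*, *Nrg2*, *Erbb4* and *Disc1*.

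How large a change remained compatible with these data is given by the 95% intervals of the log2 fold changes. They were narrow for *Nrg3* (−0.10 to 0.33 in Pool 1 and −0.27 to 0.16 in Pool 2, each against Control) and for *Dtnbp1* (−0.18 to 0.33 and −0.29 to 0.22). They were wide for *Nrg1* (−0.42 to 0.61 and −0.12 to 0.90) and for *Disc1* (−0.60 to 0.44 and −0.48 to 0.55), which were the genes with the fewest reads, 38 to 142 and 22 to 68 per library. For *Erbb4*, with 700 to 1972 reads per library, the interval was also wide (−0.29 to 0.71 and −0.70 to 0.30), and its level differed from mouse to mouse in every group (coefficient of variation 25.2% to 25.8%).

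The genes differed widely in level, compared here as CPM per kilobase of annotated exons over the 20 mice. *Tcf4* had the highest level (20.6 ± 2.92, SD, n = 20), followed by *Dtnbp1* (12.6 ± 1.81), *Zfp804a* (6.76 ± 1.22), *Nrg3* (6.05 ± 0.679), *Erbb4* (4.85 ± 1.26), *Reln* (3.54 ± 0.652), *Nrg2* (2.13 ± 0.639), *Disc1* (0.522 ± 0.138) and *Nrg1* (0.365 ± 0.102). Of the 8 neighbouring pairs in this order, only *Dtnbp1* and *Zfp804a*, and *Nrg2* and *Disc1*, had ranges over the 20 mice that did not overlap. *Zfp804a* was above *Nrg3* in 15 of 20 libraries, *Nrg3* above *Erbb4* in 17, *Erbb4* above *Reln* in 18, and *Disc1* above *Nrg1* in 20. Divided by the longest annotated transcript in place of all exons, *Nrg3* (10.3) stood above *Zfp804a* (7.68), *Reln* (7.18) above *Erbb4* (4.98), and *Nrg1* (0.698) and *Disc1* (0.694) were level.

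**Figure D2:**
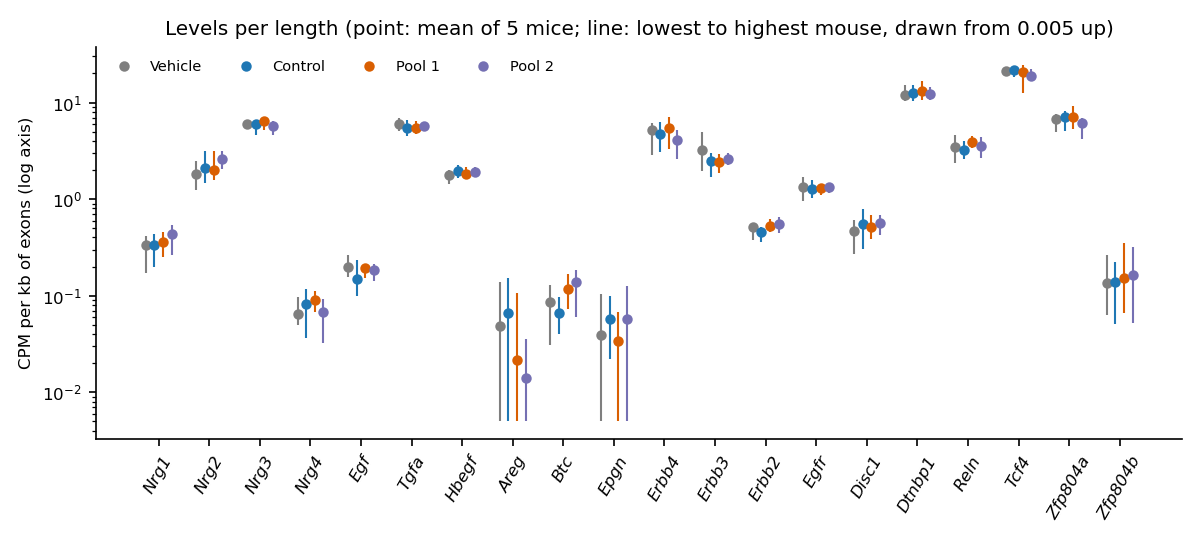
Level in CPM per kilobase of exons (vertical log axis) of the 9 genes, the other ErbB ligands and receptors and the *Zfp804a* paralogue *Zfp804b*, by group (colour), with the mean of 5 mice as a point and the lowest to highest mouse as a line drawn from 0.005 up. *Nrg3* is the neuregulin with the highest level in every group and *Erbb4* the ErbB receptor with the highest level, with *Erbb3* below it and *Erbb2* and *Nrg4* far lower.

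Among the neuregulins, *Nrg3* held the largest share of the summed level per kilobase of *Nrg1*, *Nrg2* and *Nrg3*: 73.7% ± 4.93 in Vehicle, 71.6% ± 6.61 in Control, 73.5% ± 4.91 in Pool 1 and 65.5% ± 4.62 in Pool 2 (SD, n = 5). The share ranged from 59.5% to 70.2% in Pool 2 and from 64.4% to 78.6% in Control, so that these groups overlapped. Of the other ligands of ErbB receptors, *Tgfa*, which acts on the EGF receptor, was close to *Nrg3* in level (5.65 ± 0.647 CPM per kilobase), and *Hbegf*, a ligand of the EGF receptor and of ERBB4, stood at 1.85 ± 0.221. *Nrg4* (0.0758 ± 0.0229) and betacellulin (*Btc*, 0.102 ± 0.0445) were near the lower end, and amphiregulin (*Areg*) and epigen (*Epgn*) had at most 4 and 5 reads in a library.

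*Nrg1*, the best known neuregulin, lies on chromosome 8 (31814551 to 32884797, minus strand, GRCm38, as are all positions here), where it spans 1070 kilobases. Its level was 4.21, 4.16, 4.28, 2.94 and 1.77 CPM in the 5 Vehicle mice and 2.06, 2.82, 3.45, 4.37 and 4.51 CPM in the Control mice. Pool 1 mice had 2.59, 4.71, 3.49, 4.27 and 3.41 CPM, and Pool 2 mice had 3.98, 5.53, 2.71, 5.43 and 4.90 CPM. Thus 3 of 5 Pool 2 mice lay above all Control mice, while another Pool 2 mouse lay below most of them. The log2 fold change in Pool 2 against Control was 0.39 ± 0.25 (SE, edgeR, adjusted p = 0.76, exact permutation p = 0.206), the largest of the 9 genes in this comparison, and that in Pool 1 was 0.10 ± 0.25 (adjusted p = 0.99). Without Pool 2 replicate 3, its lowest Pool 2 mouse, the log2 fold change was 0.53 and past the threshold (edgeR).

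*Nrg2*, a close relative of *Nrg1* (chromosome 18, 36017652 to 36197380, minus strand), had 7.79, 5.71, 5.77, 3.91 and 5.31 CPM in Vehicle mice and 4.96, 4.68, 4.65, 9.86 and 8.84 CPM in Control mice. The Pool 1 mice were at 9.91, 4.89, 4.90, 6.55 and 4.98 CPM, and the Pool 2 mice at 8.55, 9.81, 6.50, 8.89 and 7.04 CPM. The Control mice fell apart into 3 low and 2 high mice, and of the high ones 1 lay just above all Pool 2 mice and the other within their range. *Nrg2* differed by 0.30 ± 0.24 (log2) in Pool 2 against Control (SE, edgeR, adjusted p = 0.823), −0.08 ± 0.24 in Pool 1 against Control (adjusted p = 0.992) and 0.38 ± 0.24 in Pool 2 against Pool 1 (adjusted p = 0.717). Single mice decided these values: without Control replicate 4 the log2 fold change in Pool 2 against Control was 0.49, and without Pool 1 replicate 1 that of Pool 2 against Pool 1 was 0.61, both past the threshold by edgeR. The libraries with high *Nrg2* also had high levels of dentate granule markers, described with the library measures.

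*Nrg3*, the neuregulin largely restricted to the nervous system, lies on chromosome 14 (38368952 to 39473088, minus strand) and spans 1104 kilobases. It was the steadiest of the 9 genes over the 20 mice, with a coefficient of variation of 11.2%. Vehicle mice had 38.9, 39.7, 45.1, 41.4 and 38.8 CPM and Control mice 31.7, 41.1, 45.3, 43.9 and 41.6 CPM. Pool 1 mice had 45.1, 46.6, 47.4, 45.7 and 35.4 CPM, and Pool 2 mice had 31.1, 42.8, 37.2, 41.8 and 43.7 CPM. In Pool 1, 4 mice were above all Pool 2 mice and the fifth was low. *Nrg3* differed by 0.11 ± 0.10 (log2) in Pool 1 and −0.05 ± 0.10 in Pool 2 against Control (SE, edgeR, adjusted p = 0.948 and 0.95), and −0.16 ± 0.10 in Pool 2 against Pool 1 (adjusted p = 0.731). Without Pool 1 replicate 5, the exact permutation p-value was 0.0159 in Pool 2 against Pool 1 (difference −0.24 log2) and 0.0317 in Pool 1 against Control (difference 0.19 log2), both under the fold threshold.

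*Erbb4*, the neuregulin receptor (chromosome 1, 68032186 to 69108059, minus strand, 1076 kilobases), had 65.5, 72.2, 70.9, 75.2 and 35.0 CPM in Vehicle mice and 37.8, 51.3, 77, 60.1 and 64.4 CPM in Control mice. Pool 1 mice had 64.6, 88.4, 72.3, 70.1 and 40.5 CPM, and Pool 2 mice had 32.0, 59.1, 44.6, 52.0 and 64.6 CPM. Each group held 1 mouse at 40.5 CPM or lower. The largest difference was between the patient pools, with a log2 fold change of −0.41 ± 0.24 in Pool 2 against Pool 1 (SE, edgeR, adjusted p = 0.69, exact permutation p = 0.167). It was 0.21 ± 0.24 in Pool 1 and −0.20 ± 0.24 in Pool 2 against Control (adjusted p = 0.968 and 0.909). Without Pool 1 replicate 5, the log2 fold change of Pool 2 against Pool 1 was −0.55 and past the threshold by edgeR, and the exact permutation p was 0.0317.

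**Figure D3:**
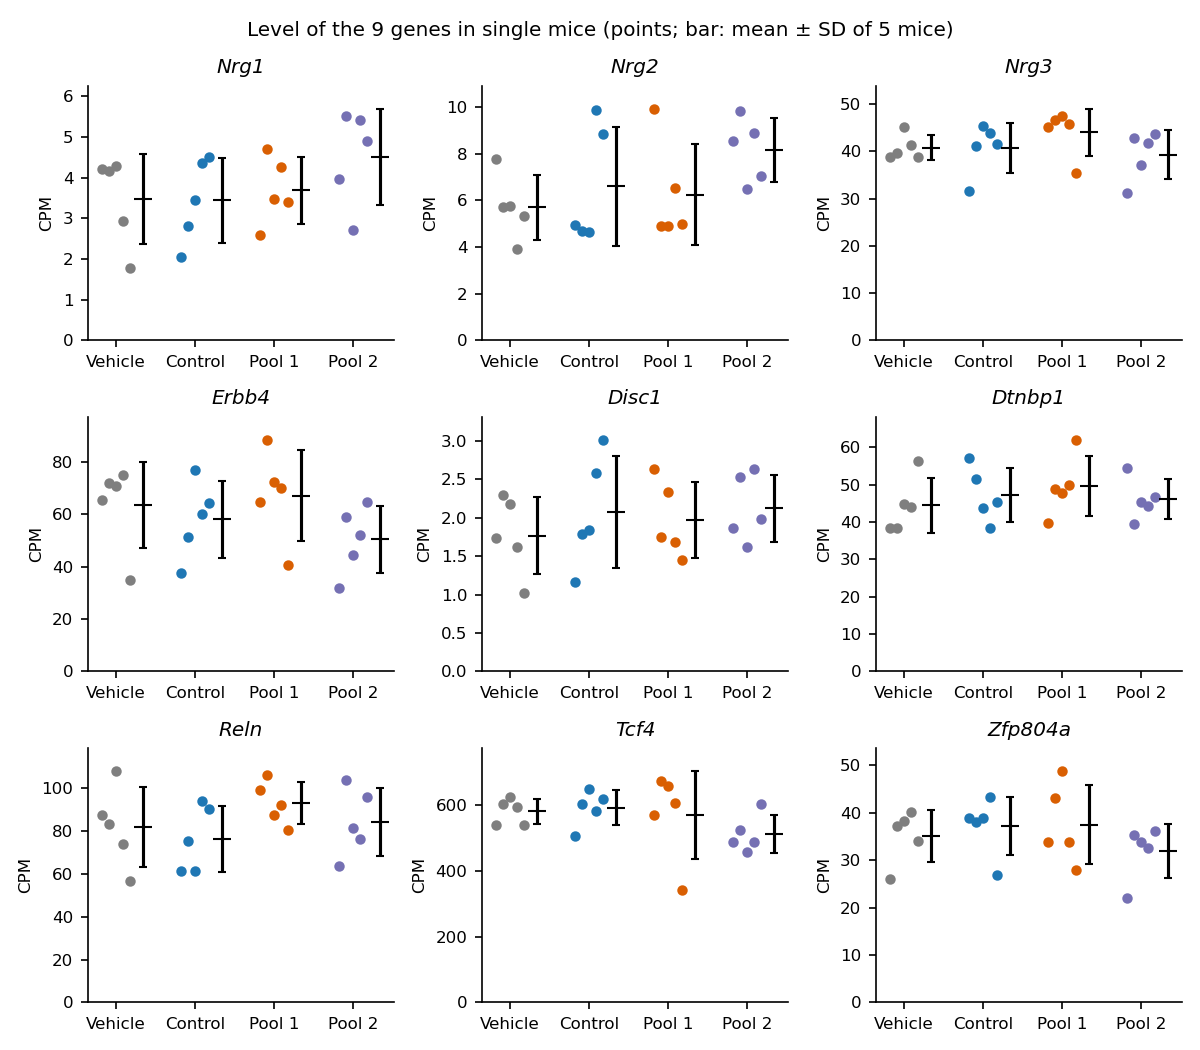
Level in CPM (vertical axis from 0) of the 9 genes (panels) in the 5 mice of each group (points, in replicate order), with the mean ± SD beside them. The groups overlap in every panel, and the low mouse in each group for *Erbb4* (32.0 to 40.5 CPM) and the low Pool 1 mouse for *Tcf4* (343 CPM) stand out.

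*Disc1*, a scaffold protein of the centrosome and of neuronal outgrowth (chromosome 8, 125054195 to 125261858, plus strand), was near the lower end of the 9 genes. Vehicle mice had 1.73, 2.29, 2.18, 1.62 and 1.02 CPM and Control mice had 1.16, 1.79, 1.84, 2.58 and 3.01 CPM. The Pool 1 values were 2.63, 1.75, 2.33, 1.68 and 1.45 CPM, and the Pool 2 values 1.87, 2.53, 1.62, 2.63 and 1.98 CPM. The Control mice spanned the whole range of both patient pools. Against Control, *Disc1* differed by −0.08 ± 0.25 (log2) in Pool 1 and 0.04 ± 0.25 in Pool 2 (SE, edgeR, adjusted p = 0.992 and 0.991), and Control against Vehicle was 0.23 ± 0.25 (adjusted p = 0.924).

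*Dtnbp1* encodes dysbindin, a subunit of the BLOC-1 complex that sorts cargo to lysosome-related organelles (chromosome 13, 44922075 to 45002147, minus strand). It ranged from 38.4 to 56.4 CPM in Vehicle (median 44.1), from 38.4 to 57.0 in Control (median 45.3), from 39.7 to 61.9 in Pool 1 (median 48.8) and from 39.5 to 54.4 in Pool 2 (median 45.4). The groups covered nearly the same range. Its log2 fold changes against Control were 0.07 ± 0.12 in Pool 1 and −0.03 ± 0.12 in Pool 2 (SE, edgeR, adjusted p = 0.984 and 0.977).

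*Reln* (chromosome 5, 21884454 to 22344702, minus strand) had 87.7, 83.3, 108, 74.0 and 56.6 CPM in Vehicle mice and 61.3, 75.6, 61.5, 93.9 and 90.2 CPM in Control mice. In Pool 1 it had 99.4, 106, 87.3, 92.4 and 80.7 CPM, and in Pool 2 it had 63.8, 104, 81.4, 76.1 and 96.1 CPM. In Pool 1, 2 mice were above all Control mice and all 5 were above 3 of the 5 Control mice. The log2 fold change in Pool 1 against Control was 0.29 ± 0.16 (SE, edgeR, adjusted p = 0.917), with an exact permutation p of 0.0873, and that in Pool 2 was 0.14 ± 0.16 (edgeR, adjusted p = 0.902). *Reln* in Pool 1 against Control lay next to the threshold and crossed it in several alternatives: with only these groups in the edgeR fit (0.30), without Control replicate 4 (0.37, exact permutation p = 0.0476) and without Control replicate 5 (0.35). In the hippocampus reelin is made by interneurons and by Cajal-Retzius cells, and the summed level of the 5 Cajal-Retzius markers was 53.9 to 74.2 CPM in Control and 54.6 to 68.7 CPM in Pool 1, with no marker at 0. Of the Cajal-Retzius markers, *Trp73* and *Lhx5* had means of only 5.25 and 0.446 CPM in Control and 5.26 and 0.355 CPM in Pool 1. Most of that sum thus came from the other markers of the list. The summed level of the 10 interneuron markers was 999 to 1300 CPM in Control and 1090 to 1290 CPM in Pool 1, again with none at 0. Over the 20 mice, *Reln* had r = 0.12 to the mean log2 CPM of the Cajal-Retzius list (adjusted permutation p = 0.681) and r = −0.15 to that of the interneuron list (adjusted permutation p = 0.655). Only 1 gene annotated over a member is in the table used here, the antisense gene *Gm10475* at *Reln*, with a mean of 0.95 reads per library.

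*Tcf4* (chromosome 18, 69343356 to 69689079, plus strand) encodes a class I bHLH factor that pairs with neuronal bHLH partners, and was the most abundant of the 9 genes. Vehicle mice had 541, 603, 626, 595 and 539 CPM and Control mice had 507, 605, 648, 582 and 620 CPM. Pool 1 mice had 569, 673, 659, 606 and 343 CPM, and Pool 2 mice had 487, 525, 457, 488 and 605 CPM. In Pool 2, 3 mice were below all Control mice. The log2 fold change in Pool 2 against Control was −0.21 ± 0.13 (SE, edgeR, adjusted p = 0.745), with an exact permutation p of 0.0635, the smallest of the 36. The fold was 0.865 with a 95% interval of 0.719 to 1.04. With DESeq2's size factors the exact permutation p was 0.0476, and without Control replicate 1 or without Pool 2 replicate 5 it was 0.0317, with the log2 difference then at −0.22 to −0.27 and under the fold threshold.

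*Zfp804a* (chromosome 2, 82053222 to 82259879, plus strand) ranged from 26.1 to 40.2 CPM in Vehicle (median 37.2), from 26.8 to 43.4 in Control (median 38.9), from 28.0 to 48.8 in Pool 1 (median 33.9) and from 22.0 to 36.1 in Pool 2 (median 33.9). The lowest value of all belonged to Pool 2 replicate 1. Its log2 fold change was −0.22 ± 0.16 in Pool 2 and 0.01 ± 0.16 in Pool 1 against Control (SE, edgeR, adjusted p = 0.806 and 1). Without Control replicate 5, the lowest Control mouse, the exact permutation p in Pool 2 against Control was 0.0159, the smallest that 5 against 4 mice can give, with a difference of −0.34 log2. By edgeR, *Zfp804a* was not past the threshold without this mouse. Its paralogue *Zfp804b* was far lower in level (0.146 ± 0.0876 CPM per kilobase, SD, n = 20).

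The other genes of these pathways were counted over 8 lists with 85 measured genes of 86 listed. In Pool 1 against Control, 2 of 85 passed the threshold (2.35%, with 3.48% of all genes), 1 higher and 1 lower, where 1.48% of all genes were higher and 1.99% lower. In Pool 2 against Control, 5 of 85 passed (5.88%, with 6.22% of all genes), 4 higher and 1 lower, where 5.20% of all genes were higher and 1.01% lower. In Pool 2 against Pool 1, 3 of 85 passed (3.53%, with 6.82% of all genes), all higher, where 5.66% of all genes were higher and 1.16% lower. In Control against Vehicle, 3 of 85 passed (3.53%, with 5.10% of all genes), all lower, where 1.70% of all genes were higher and 3.41% lower. No share was above that of all 25190 genes, taken without a filter for low counts. The median log2 fold change of the 85 genes was between −0.02 and 0.01 in the 4 comparisons.

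Of the 10 other ErbB ligands and receptors measured, only *Btc* passed in either patient pool. Betacellulin is a ligand of the EGF receptor and of ERBB4. Control mice had 4, 9, 5, 7 and 10 reads of *Btc*, Pool 1 mice 12, 17, 11, 12 and 8, and Pool 2 mice 6, 18, 15, 20 and 17. *Btc* was higher by 0.80 ± 0.37 (log2) in Pool 1 (SE, edgeR, adjusted p = 0.917) and 1.08 ± 0.37 in Pool 2 (adjusted p = 0.486), and both comparisons share the same Control mice. Vehicle mice had 14, 12, 9, 8 and 3 reads, which overlapped all the other groups. The Pool 1 value fell short of the threshold when any of Control replicates 1, 3 and 4 or Pool 1 replicates 2, 3 and 4 was left out (0.64 to 0.81), with the replicate block (0.80) and with the transcript length covariate (0.58).

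None of the 8 proteases and secretase subunits that cut neuregulins passed against Control. *Adam17*, an ectodomain sheddase, was called in Pool 2 against Pool 1 (log2 fold change 0.30 ± 0.12, SE, edgeR, adjusted p = 0.457). Pool 2 mice had 31.4, 21, 19.2, 19.4 and 19.5 CPM and Pool 1 mice had 19.9, 19.1, 18.7, 16.6 and 15.2 CPM. Without Pool 2 replicate 1 the log2 fold change was 0.14, and it was also under the threshold without Pool 1 replicate 4 (0.28) or 5 (0.25). With all libraries it was 0.29 by DESeq2, with DESeq2's size factors and with the replicate block, 0.28 with filterByExpr and 0.26 with only the groups compared, each short of the fold threshold.

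Of the 17 signalling and scaffold genes downstream of ErbB receptors, *Shc1* and *Stat5a* were higher in Pool 2 than in Control and none passed in Pool 1. *Shc1* encodes an adaptor that links the receptors to the RAS pathway, and its values of 14.6, 10.8, 11.8, 12.2 and 11.7 CPM in Pool 2 lay above all Control values of 10.3, 10.1, 8.88, 9.10 and 9.60 CPM. Its log2 fold change was 0.35 ± 0.11 against Control (SE, edgeR, adjusted p = 0.479) and 0.45 ± 0.11 against Pool 1 (adjusted p = 0.197). The Vehicle values, 10.6, 10.9, 12, 11.3 and 10.7 CPM, overlapped those of Pool 2 and lay above all Control values. *Stat5a*, a transcription factor that can act downstream of ERBB4, was higher by 0.47 ± 0.19 (log2) in Pool 2 than in Control (SE, edgeR, adjusted p = 0.559) and differed by −0.49 ± 0.19 in Control against Vehicle (adjusted p = 0.734), so that the Control mean (1.86 CPM) lay below both the Vehicle mean (2.61 CPM) and the Pool 2 mean (2.59 CPM). Without Pool 2 replicate 1, which had the highest level of both genes, *Shc1* fell under the fold threshold at 0.27 and *Stat5a*, at 0.35, fell short of the p-value threshold. *Stat5a* also fell short without Control replicate 2 (0.40). *Gab1*, a docking protein of the same pathway, was lower in Control than in Vehicle (−0.33 ± 0.14, adjusted p = 0.735), and without Vehicle replicate 1 or 2, its high mice, the value was −0.20 or −0.21. It also fell short of the threshold without Control replicate 4 (−0.31) or 5 (−0.27), with filterByExpr (−0.30 when rounded) and with only the groups compared (−0.31).

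Of the 15 reelin pathway genes, which include the receptors *Vldlr* and *Lrp8* and the adaptor *Dab1*, only *Itga3* passed, a subunit of an integrin that binds reelin. It was higher in Pool 2 than in Control (log2 fold change 0.41 ± 0.13, SE, edgeR, adjusted p = 0.479) and lower in Control than in Vehicle (−0.36 ± 0.13, adjusted p = 0.734). Pool 2 mice had 12.6, 17.6, 14.7, 19.7 and 14.3 CPM, Control mice 12.3, 11.7, 10.4, 12.2 and 12.6 CPM, and Vehicle mice 16.9, 16.5, 13.2, 18.8 and 10.9 CPM. The Control mice were thus low and close together, and the other groups were wider. Without Vehicle replicate 4, the log2 fold change of Control against Vehicle was −0.28.

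None of the 12 partners of DISC1 passed in any comparison, with log2 fold changes between −0.33 and 0.20. Of the 12 subunits of the BLOC-1 and AP-3 complexes, *Bloc1s1*, which shares BLOC-1 with dysbindin, was lower in Pool 1 than in Control (−0.60 ± 0.27, SE, edgeR, adjusted p = 0.917). Its counts were 26 to 32 in Control, 13 to 26 in Pool 1 and 12 to 31 in Vehicle. The call was lost without Control replicate 3 or 5 or without Pool 1 replicate 2, 3 or 4 (−0.50 to −0.59). Of the 10 bHLH partners and inhibitors of TCF4, *Neurod6*, a factor of pyramidal neurons, was lower in Pool 2 than in Control (−0.42 ± 0.16, edgeR, adjusted p = 0.53), with 213 to 266 CPM in Pool 2 and 229 to 395 CPM in Control. Without Control replicate 3 its log2 fold change was −0.32 and short of the threshold. *Id3*, an inhibitor of bHLH factors, was higher in Pool 2 than in Pool 1 (0.43 ± 0.15, edgeR, adjusted p = 0.395), with 36.4 to 52.8 CPM in Pool 2 and 23.1 to 44.9 CPM in Pool 1.

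**Figure D4:**
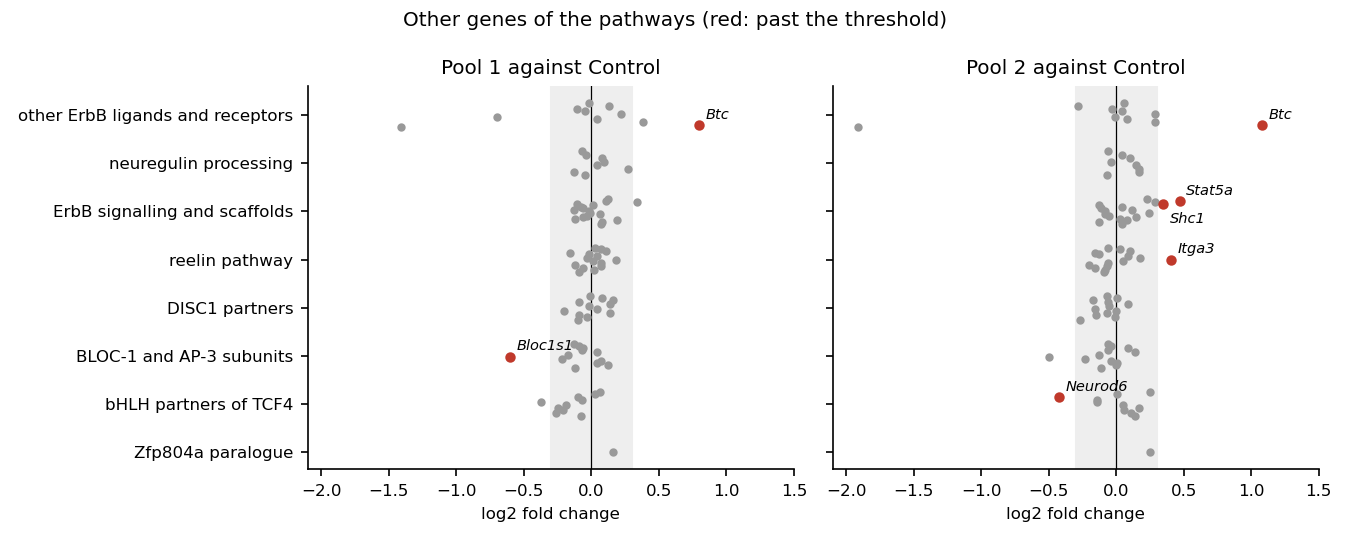
Log2 fold change (horizontal axis) of the 85 other pathway genes by list (rows), in Pool 1 (left) and Pool 2 (right) against Control, with genes past the threshold in red and named and the grey band at changes under 0.3. Most genes lie in the band, 2 genes are past the threshold in Pool 1 and 5 in Pool 2, and the leftmost point of each panel is *Areg*, with at most 4 reads in a library.

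Over the 20 mice, 13 of the 36 pairs of the 9 genes had a Pearson correlation of log2 CPM with an adjusted permutation p under 0.05. By Pearson's r over all 20 mice, the closest pair was *Nrg3* and its receptor gene *Erbb4* (r = 0.84, permutation p = 2e-05, adjusted p = 0.00072; rho = 0.75, p = 0.00034, adjusted p = 0.00408), with r = 0.83 within groups and 0.73 without the 2 mice farthest from the median of *Nrg3*. *Erbb4* and *Tcf4* had r = 0.72 (permutation p = 0.00018, adjusted p = 0.00324; rho = 0.79, p = 7e-05, adjusted p = 0.00216), and 0.81 without the 2 mice farthest from the median of *Erbb4*. By rho and without the 2 farthest mice this pair was thus closer than *Nrg3* and *Erbb4*, and so were *Nrg3* and *Tcf4* (rho = 0.78, permutation p = 0.00012, adjusted p = 0.00216; r = 0.69, p = 0.00129, adjusted p = 0.00929, and 0.79 without the 2 farthest mice). *Dtnbp1* ran the other way, with r = −0.68 to *Disc1* (permutation p = 0.00093, adjusted p = 0.00929; rho = −0.58, p = 0.00834, adjusted p = 0.0429), and −0.68 again without the 2 mice farthest from the median of *Disc1*. These points share library, depth and tissue piece, and the share of such correlations among other pairs of genes was not counted. *Nrg3*, *Erbb4*, *Tcf4* and *Disc1* also rose with the length score described with the library measures, and *Dtnbp1* fell with it.

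The sequence before the RefSeq start of a gene (GRCm38.p6) is shown for *Nrg3* and *Erbb4*, as the pair with the highest Pearson's r over all 20 mice, and for *Disc1* and *Reln*, as the genes with an E-box there. The sequences searched were those of 6 of the 9 genes, and *Nrg1*, *Nrg2* and *Tcf4* were not searched. Capitals mark the E-box CANNTG, the letters that bHLH factors such as TCF4 bind, a pattern that is its own reverse complement, so that a single search covers both strands. The 250 bases before the start are written 5′ to 3′ on the strand of the gene.
Nrg3, chr14:39473089-39473338, minus strand: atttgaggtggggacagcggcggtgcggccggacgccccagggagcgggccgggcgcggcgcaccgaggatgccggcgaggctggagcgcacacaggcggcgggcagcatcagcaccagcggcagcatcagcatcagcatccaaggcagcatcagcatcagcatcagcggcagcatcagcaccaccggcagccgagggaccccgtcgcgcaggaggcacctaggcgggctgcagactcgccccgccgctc
Erbb4, chr1:69108060-69108309, minus strand: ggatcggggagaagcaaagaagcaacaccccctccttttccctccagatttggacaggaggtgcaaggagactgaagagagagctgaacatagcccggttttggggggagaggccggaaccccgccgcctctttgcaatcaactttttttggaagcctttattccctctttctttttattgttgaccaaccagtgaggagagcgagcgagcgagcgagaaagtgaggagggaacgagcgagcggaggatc
Disc1, chr8:125053945-125054194, plus strand: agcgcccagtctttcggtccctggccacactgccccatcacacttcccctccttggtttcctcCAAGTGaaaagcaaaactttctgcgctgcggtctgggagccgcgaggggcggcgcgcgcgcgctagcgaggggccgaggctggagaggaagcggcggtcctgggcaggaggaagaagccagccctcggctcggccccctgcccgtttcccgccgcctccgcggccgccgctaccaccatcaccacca
Reln, chr5:22344706-22344955, minus strand: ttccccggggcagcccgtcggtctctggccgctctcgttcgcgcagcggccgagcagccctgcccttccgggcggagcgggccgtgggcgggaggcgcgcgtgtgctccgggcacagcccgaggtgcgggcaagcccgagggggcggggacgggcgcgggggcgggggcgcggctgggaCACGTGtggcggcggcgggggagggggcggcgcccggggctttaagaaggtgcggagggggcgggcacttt
The E-box was present once before *Disc1* and once before *Reln*, and it was not in these letters before *Nrg3*, *Erbb4*, *Dtnbp1* or *Zfp804a*. It occurred in 66.2% of 32851 RefSeq promoters of the same length. The marked letters are CAAGTG before *Disc1* and CACGTG before *Reln*. Another form of the E-box, CAGGTG or its reverse complement CACCTG, was in none of the 6 sequences and in 17.2% of the promoters. The sequence before *Reln* was 80.0% G and C, that before *Nrg3* 72.4%, that before *Disc1* 69.2% and that before *Erbb4* 54.0%. A match is a description of letters and no measure of binding.

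The levels of several of the 9 genes moved with properties of the libraries that were not part of the design. A length score compared 3374 genes with a longest transcript of at least 5 kilobases with 3374 genes with one of at most 2.38 kilobases. The score was the mean log2 deviation of the long class minus that of the short class, and the 9 genes were left out of both. It ranged from −0.46 to 0.24, was lowest in Control replicate 1 (−0.464), Pool 1 replicate 5 (−0.374), Vehicle replicate 5 (−0.282), Control replicate 2 (−0.260) and Pool 2 replicate 1 (−0.241), and its group means were 0.07 in Vehicle, −0.08 in Control, 0.05 in Pool 1 and −0.05 in Pool 2. Of 36 relations of the 9 genes to 4 such measures, 12 had an adjusted permutation p of Pearson's r under 0.05, and the share for other genes was not counted.

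*Erbb4*, with a longest transcript of 12.04 kilobases, rose with the length score over the 20 mice (r = 0.84, permutation p = 3e-05, adjusted p = 0.00036; rho = 0.68, p = 0.00115, adjusted p = 0.00828). Its r was 0.86 within groups and 0.80 without the 2 mice farthest from the median score. *Dtnbp1*, with a longest transcript of 1.804 kilobases, fell with it (r = −0.84, permutation p = 1e-05, the smallest 100000 permutations can give, adjusted p = 0.00036; rho = −0.76, p = 0.00016, adjusted p = 0.00288), with −0.91 within groups and −0.76 without the 2 farthest mice. *Nrg3* (r = 0.76, permutation p = 0.00014, adjusted p = 0.00101; rho = 0.65, p = 0.00213, adjusted p = 0.0128) and *Reln* (r = 0.72, permutation p = 0.00052, adjusted p = 0.00312; rho = 0.73, p = 0.00036, adjusted p = 0.00369) also rose with it, with 0.62 and 0.73 without the 2 farthest mice. So did *Disc1* (r = 0.67, adjusted permutation p = 0.00617), *Tcf4* (r = 0.61, adjusted permutation p = 0.0111) and *Nrg1* (r = 0.58, adjusted permutation p = 0.0216). By rho (0.55, 0.47 and 0.45) none of these had an adjusted permutation p under 0.05. The longest transcript of *Disc1*, 2.86 kilobases, lies between the long and short classes. The 4 mice with the lowest *Erbb4* in their group, Vehicle replicate 5, Control replicate 1, Pool 1 replicate 5 and Pool 2 replicate 1, had the lowest score of their group. The same 4 mice had the highest *Dtnbp1* of their group. With the score as a covariate, a fit added after the data were seen, *Nrg2* in Pool 2 against Pool 1 had a log2 fold change of 0.48 and *Disc1* in Control against Vehicle 0.45, both past the threshold by edgeR. The part of RNA quality in this spread was not tested, since no value for single libraries was used here.

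*Nrg2* followed the dentate granule markers, whose list (*Prox1*, *Dsp*, *C1ql2*, *Lct*, *Trpc6* and *Pdzd2*) was at a mean of 5.20 to 6.82 log2 CPM. Over the 20 mice r was 0.86 (permutation p = 2e-05, adjusted p = 0.00036) and rho 0.85 (p = 1e-05, the smallest 100000 permutations can give, adjusted p = 0.00036). The relation stayed without the 2 mice farthest from the median (0.85) and within groups (0.88). *Dtnbp1* (r = −0.66, adjusted permutation p = 0.00715) and *Disc1* (r = 0.60, adjusted permutation p = 0.0189) were also related to the dentate list. By rho (−0.54 and 0.55) the adjusted permutation p of each was 0.053. *Nrg2* had a negative relation to the interneuron list (r = −0.77, permutation p = 9e-05, adjusted p = 0.00081; rho = −0.73, p = 0.00041, adjusted p = 0.00369), −0.73 within groups and −0.72 without the 2 farthest mice. Its relation to the Cajal-Retzius list was positive (r = 0.64, adjusted permutation p = 0.0098, and rho = 0.62, adjusted permutation p = 0.0203). The summed dentate markers were 270 to 692 CPM in Control, 252 to 757 CPM in Pool 1 and 430 to 654 CPM in Pool 2, with none of the 6 at 0 in any group. With the dentate list as a covariate, also added after the data were seen, *Nrg2* was past the threshold in no comparison, as without it. In that fit *Reln* in Pool 1 against Control had a log2 fold change of 0.37 and was past the threshold. The part of the dentate markers in the *Nrg2* differences was not tested beyond this fit.

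**Figure D5:**
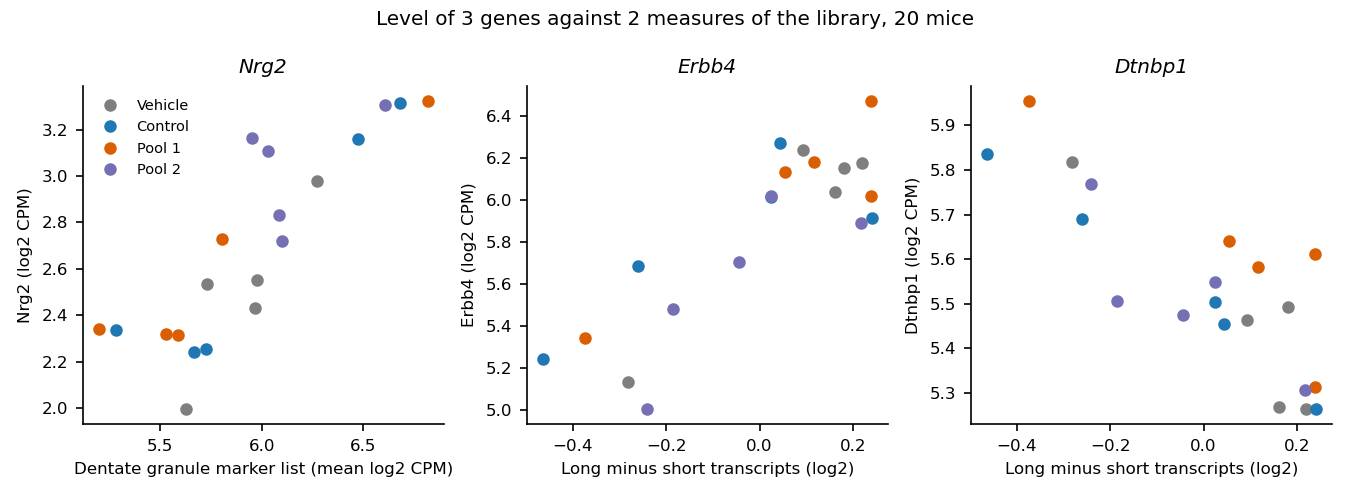
Level in log2 CPM (vertical axis) of *Nrg2* against the mean log2 CPM of the dentate granule list, and of *Erbb4* and *Dtnbp1* against the length score (log2, long minus short transcripts), with 1 point per mouse coloured by group. *Nrg2* rises along the first axis (r = 0.86), *Erbb4* rises with the length score (r = 0.84) and *Dtnbp1* falls (r = −0.84), with mice of all groups along each line.

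The genes most like each member were taken as those with the highest r over the 20 mice among genes with a mean of at least 1 CPM, and since they are the extremes of a long list of genes, no p-value is given. *Nrg2* was most like *Grm2*, the presynaptic glutamate receptor gene (r = 0.94), *Carmil1* (0.92) and *Jun* (0.92). *Erbb4* was most like *Rnf150* (0.96), *Lpgat1* (0.96) and *Reps2* (0.95), and *Nrg3* most like *March6* (0.93), the sodium channel gene *Scn2a* (0.92) and *Prkci* (0.92). *Tcf4* was most like *Rock2* (0.94), *Ankrd12* (0.94) and *Tmf1* (0.93). *Dtnbp1* was most like *Cpe* (0.93), *Ndufa5* (0.91) and *Srp14* (0.90), whose longest transcripts are 2.12, 0.88 and 0.80 kilobases, while those named for *Erbb4* are 7.23 to 9.68 kilobases long. *Nrg1* was most like *Hivep1* (0.81), *Srgap1* (0.80) and *Cacna1g* (0.80), *Disc1* most like *Ptpre* (0.87), *Ikzf4* (0.85) and *Srrm4* (0.83), *Reln* most like *Csmd2* (0.89), *Asxl1* (0.88) and *Sez6l* (0.88), and *Zfp804a* most like *Rapgef5* (0.90), *Cap2* (0.87) and *Pygo1* (0.85).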

How the data were processed

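Stranded libraries of polyadenylated RNA were sequenced by the authors as single-end reads, aligned with STAR to GRCm38 and counted per gene with GENCODE annotation (the submitters' processing notes also name FastQC 0.11.5). The authors deposited raw counts of 25190 genes, without normalization and without genes whose summed count was under 10. The strand column used for counting is not given in the sources used here.

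The 9 genes and all lists were chosen with earlier results of these data known. The main test was edgeR 4.0.16 (R 4.3.3) with TMM scaling: a robust quasi-likelihood model of the 4 groups, fitted once to all 25190 genes and 20 libraries, with Benjamini-Hochberg adjustment. Standard errors were the log2 fold change divided by the square root of F, and intervals are at 95%. Single genes were also tested by exact two-sided permutation of log2 CPM (prior count 2, SciPy 1.17.1), adjusted over 36 tests, and correlations by 100000 permutations (seed 1). The labels give each replicate as a separate mouse, and no library repeated another of its group (chi-square of 7.59 to 60.8 per degree of freedom between replicates of a group). Libraries of different groups were not compared in this way. Named are all 9 genes, the pathway genes past the threshold (at most 8 a comparison), the 3 genes most correlated with each of the 9, and genes annotated over them.

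Alternatives were DESeq2 1.42.0, edgeR with DESeq2's size factors, genes with a mean normalized count of 10 or more, genes kept by filterByExpr, the default spread, a fit of the compared groups alone, a block for the replicate number, 18 libraries without Vehicle replicate 4 and Pool 2 replicate 1 (a set that an earlier analysis matched to the study's table), and each library left out in turn. The covariates for the dentate list and the length score were added after the data were seen. The fit was checked on simulated counts. A count of 3, taken as the floor, is 0.117 to 0.146 CPM and covers counting error only. GENCODE M21 gave positions and lengths for 99.8% of the genes, and promoters are from RefSeq. Figures were drawn with matplotlib 3.10.9.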

Additional observations from a re-analysis of the deposited data

Results flagged for a closer look

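Of 72 groups of 5 mice, 5 held a mouse whose gap to the next one took more than 0.71 of the group's range, where chance flags about 3.6. *Nrg3* was at 35.4 CPM in Pool 1 replicate 5, where the other Pool 1 mice had 45.1 to 47.4 CPM. *Erbb4* was at 35.0 CPM in Vehicle replicate 5, where the others had 65.5 to 75.2 CPM. *Zfp804a* was at 22.0 CPM in Pool 2 replicate 1, where the others had 32.5 to 36.1 CPM. *Adam17* was at 31.4 CPM in the same library, where the others had 19.2 to 21 CPM. *Gab1* was at 32.3 CPM in Pool 2 replicate 2, where the others had 37.5 to 39.6 CPM.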

How the results depend on the processing

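Over the alternatives, 710 of 720 values of the 9 genes stayed on the same side of the threshold and 10 passed it. The sign of 55 values not past the threshold changed, and no called value changed sign. The 13 pathway calls stayed past the threshold in 222 of 260 values and fell short in 38.

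The count of the 9 genes past the threshold was 1 in Pool 1 against Control with only the groups compared and with the dentate covariate (*Reln* in both), and 1 in Pool 2 against Pool 1 and in Control against Vehicle with the transcript length covariate. The count of pathway genes was 1 in Pool 1 against Control with the replicate number as a block and 5 in Control against Vehicle with the dentate covariate. The exact permutation tests gave 1 p-value under 0.05 with DESeq2's size factors (*Tcf4*). The causes of these changes were not tested.

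Leaving out 1 library gave 0 to 1 of the 9 genes past the threshold in each comparison with a patient pool and 0 to 0 in Control against Vehicle. Pathway genes were 0 to 4 in Pool 1 and 4 to 8 in Pool 2 against Control, 3 to 6 in Pool 2 against Pool 1 and 2 to 6 in Control against Vehicle. In the same fits the counts over all 25190 genes also moved. They were 717 to 1249 in Pool 1 and 1129 to 1818 in Pool 2 against Control, 1190 to 2067 in Pool 2 against Pool 1 and 955 to 1792 in Control against Vehicle. The permutation tests gave 0 to 4 p-values under 0.05, the 4 without Pool 1 replicate 5.

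Over all genes, 876 passed in Pool 1 against Control, 1566 in Pool 2 against Control, 1718 in Pool 2 against Pool 1 and 1285 in Control against Vehicle. Among genes with a mean normalized count of 10 or more, the counts were 402 in Pool 1 against Control, 1133 in Pool 2 against Pool 1 and 795 in Control against Vehicle, and with filterByExpr 960 in Pool 2 against Control, where fewer genes were tested.

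The replicate numbers did not pair the mice: the deviations of same-numbered mice had correlations of −0.38 to 0.30, with 7 of 20 over 0.1, and 4 of 20 matched their own number best. With the block, *Btc* in Pool 1 against Control fell short of the threshold, and the pathway counts were 5, 4 and 3 in Pool 2 against Control, Pool 2 against Pool 1 and Control against Vehicle.

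The smallest counts in a library were 38 for *Nrg1* and 22 for *Disc1*, the lowest of the 9 genes.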
